A study of Homo sapiens with 8 samples.

Results

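The regions described here are promoters at which H3K23su, succinylation of lysine 23 of histone H3, had a listed peak in each library of a 5-fluorouracil-resistant colorectal cancer line and none in the libraries of its parent. They were chosen by H3K23su peak presence alone. Merging the overlapping or touching peaks of the 4 H3K23su lists gave 122500 regions. One was kept when its midpoint lay within 1 kb of the transcription start site (TSS) of a protein-coding transcript. Of the merged regions, 16192 lay at such a promoter and 756 of those met the rule, which is 4.67% of promoter regions. They touched 752 protein-coding genes, 5.8% of the 12971 genes with any H3K23su promoter region. At 714 of the 756 promoters only 1 gene had a TSS in the window.

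The cells were HCT15, a human colorectal adenocarcinoma line. HCT15-Pa was the parental line with DMSO, the solvent control, and HCT15-FR was the derivative resistant to 5-fluorouracil (5-FU), labelled with a dose of 20 μg/mL 5-FU. The study's methods say that the parental cells were grown in drug-free medium, and name DMSO only as the solvent of 5-FU. By the same methods the resistant cells spent days in drug-free medium before experiments. Each line had 2 CUT&Tag libraries for H3K23su and 2 for H3K27ac, 8 in all, and CUT&Tag marks a histone modification by antibody-guided cutting and tagging of the DNA around it. The resistant line is a single derivative of a single parent, so resistance, drug exposure and clonal history cannot be told apart. The labels do not say whether the libraries of a pair came from separate cultures, so their spread may be technical.

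Histone succinylation is the transfer of a succinyl group from succinyl-CoA, a tricarboxylic acid cycle intermediate, to lysine, and it replaces the positive charge of the side chain with a negative one. H3K27ac, acetylation of lysine 27 of histone H3, is the usual mark of active promoters and enhancers. Promoters of human genes fall broadly into CpG-rich ones, often used in many tissues, and CpG-poor ones, often used in few tissues.

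The sequences below come from some of the strongest regions and differ in their number of CpGs. A stretch this short need not show the CpG content of the whole promoter. Each line gives 200 bases inside the region, as close to its midpoint as a stretch free of protein-coding exons allowed, in build hg19 and 5′ to 3′ on the strand of the gene, with CpG dinucleotides in capitals. ZNF470 and ZNF253 encode zinc finger proteins, SIDT1 a putative RNA transporter, MITF the transcription factor of the melanocyte lineage and ZFP14 a further zinc finger protein.
ZNF470, chr19:57078637-57078836, plus strand: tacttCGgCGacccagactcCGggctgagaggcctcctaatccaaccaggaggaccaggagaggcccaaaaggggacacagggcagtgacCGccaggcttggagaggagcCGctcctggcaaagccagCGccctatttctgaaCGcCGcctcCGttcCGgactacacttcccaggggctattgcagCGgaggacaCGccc
ZNF253, chr19:19976959-19977158, plus strand: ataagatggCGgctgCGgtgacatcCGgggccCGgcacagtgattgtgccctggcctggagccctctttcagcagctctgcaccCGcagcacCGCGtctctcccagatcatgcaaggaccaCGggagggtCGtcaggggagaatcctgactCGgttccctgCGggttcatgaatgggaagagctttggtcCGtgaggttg
SIDT1, chr3:113252091-113252290, plus strand: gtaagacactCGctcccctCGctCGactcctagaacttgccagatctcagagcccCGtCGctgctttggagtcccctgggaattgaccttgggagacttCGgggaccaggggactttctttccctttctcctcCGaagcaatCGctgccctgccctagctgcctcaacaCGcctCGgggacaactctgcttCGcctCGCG
MITF, chr3:69811675-69811874, plus strand: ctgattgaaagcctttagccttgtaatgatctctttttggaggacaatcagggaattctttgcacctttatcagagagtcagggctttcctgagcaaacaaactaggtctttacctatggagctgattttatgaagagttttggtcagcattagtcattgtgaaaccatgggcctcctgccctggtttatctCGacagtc
ZFP14, chr19:36869187-36869386, minus strand: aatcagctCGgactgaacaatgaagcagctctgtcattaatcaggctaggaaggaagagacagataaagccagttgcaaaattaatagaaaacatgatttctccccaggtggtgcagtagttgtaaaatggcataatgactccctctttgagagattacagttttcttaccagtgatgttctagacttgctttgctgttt
The ZNF470 stretch lies at positions -258 to -59 relative to the TSS and holds 12 CpGs. The ZNF253 stretch starts 243 bases downstream of the TSS and also holds 12, and the SIDT1 stretch starts 261 bases downstream and holds 13. The MITF stretch ends at the base before a TSS inside the gene and holds 1 CpG, as does the ZFP14 stretch, which starts 717 bases downstream of its TSS.

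The label "only in the resistant line" held for the regions and less often for the whole promoter. At 557 of the 756 promoters (73.7%) no parental H3K23su peak lay within 1 kb of the closest TSS in either library. At the other 199 (26.3%) a parental peak lay elsewhere in that window, and at 114 both parental libraries had one. The nearest parental peak was at a median of 2386 bases from the region, with 137 regions within 500 bp of one and 268 over 5 kb from one. At VGLL4, which encodes a TEAD cofactor, one of its regions lay 282 bases from a parental peak, and WNK4, a kinase gene among the 10 strongest, had a parental peak 7 bases from the edge of its region, while at ZNF100 the nearest parental peak was 260633 bases away.

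The H3K23su peaks that chose the regions were of modest strength. The score is the authors' -log10 P of the peak, given here also as a percentile within its own list because the lists differ in length. The score had a median of 4.31 and a maximum of 12.3 in HCT15-FR replicate 1, and a median of 4.32 and a maximum of 11.1 in replicate 2. The median percentile was 42.2 and 41.9, against 81.8 and 81.9 over all promoter regions with a peak. Both peaks stood above the middle of their list at 167 regions, and above the 80th percentile at 22. The weakest regions lay at the bottom of the lists, with a weaker peak at percentile 0.0095 for SFI1, 0.015 for RING1 and 0.090 for TMOD1. The midpoints nearest the distance limit lay 999 bases (JADE3), 998 bases (TSC22D1) and 993 bases (ANKH) from a TSS on the inside, and 1002 bases (C11orf97 and DPYSL2) and 1005 bases (ARAP3) on the outside.

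The rule asked for all 4 libraries to fit, and a looser rule admitted many more promoters. Without HCT15-Pa replicate 1 or 2 of H3K23su, 1190 or 1234 promoters met it. Without HCT15-FR replicate 1 or 2, 1592 or 1613 did. Absence here means that no peak was listed. The calling threshold is not given in the sources used here. The lowest H3K23su score in a list was 3.07 in both HCT15-Pa libraries, and lower in HCT15-FR, at 2.995 and 3.001. The lists hold no read counts, and depth is unknown. HCT15-FR lists were longer and wider for both marks, with 68365 and 67827 H3K23su peaks against 66134 and 65364, and 73834 and 76676 H3K27ac peaks against 71819 and 70600.

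**Figure D1:**
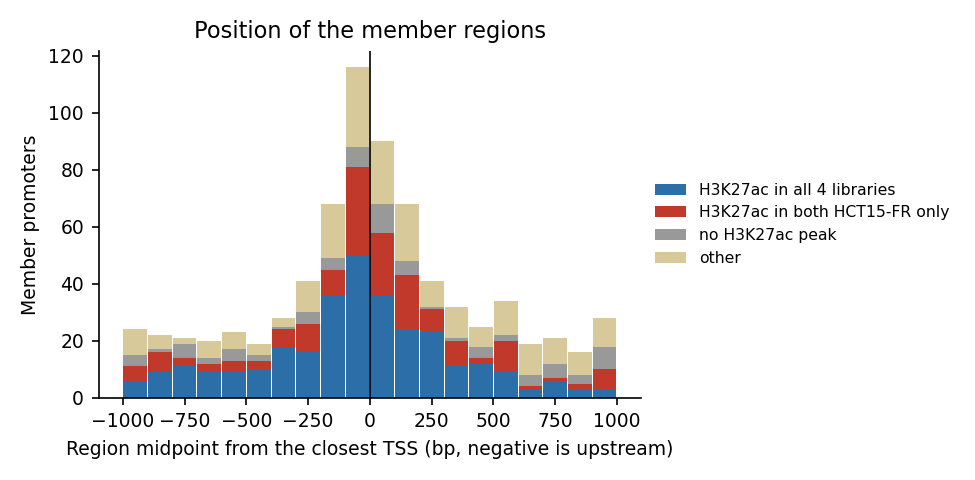
Number of member promoters (vertical axis) by the distance of the region midpoint from the closest TSS in bins of 100 bp (horizontal axis, bp, negative is upstream), stacked by H3K27ac pattern. The 2 bins on either side of the TSS hold 116 and 90 of the 756 regions, and the outermost bins hold 24 and 28.

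The regions gathered around the TSS. The midpoint lay within 200 bp of it at 343 regions and within 500 bp at 528, with 382 midpoints upstream and 373 downstream. The TSS itself was inside the region at 439 (58.1%), against 93.2% of the 10507 promoters with H3K23su in all 4 libraries, whose regions, merged from more peaks, were wider (median 1328 bp against 555 bp). The 476 promoters with H3K23su in both HCT15-Pa libraries only, the parental-line class, were alike in this, with the TSS inside at 58.2% and a median width of 593 bp.

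About equally many regions marked the 5′ end of a gene and a start site further inside it. The annotated 5′ end of the gene lay within 1 kb of the midpoint at 381 regions (50.4%), against 52.3% of the parental-line class and 74.9% of the promoters shared by all 4 libraries. Of the 375 regions at other start sites, 245 (65.3%) belonged to a gene that also carried a shared H3K23su region within 1 kb of a TSS. At a 5′ end this held for 116 of the 381 (30.4%). MITF was such a gene. Its strongest region (chr3:69811570-69812124) reached percentiles 89.9 and 95.7 of the HCT15-FR H3K23su lists, a further region (chr3:69914991-69915595) reached 45.2 and 48.1, and another start site of the gene had H3K23su in all 4 libraries. PAM, which encodes an enzyme that amidates peptide hormones, had 2 regions inside the gene, with H3K23su percentiles of 95.9 and 86.9 at chr5:102201331-102202255 and of 78.4 and 92.2 at chr5:102143296-102144112. In all, 42 genes had 2 or more regions. PLEKHG5, a guanine nucleotide exchange factor gene, had 4, and ARHGDIA, STARD10 and ZDHHC18 had 3 each.

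H3K27ac was not used to choose the regions, so it could be compared between the lines. An H3K27ac peak overlapped 49.9% of the 756 regions in HCT15-Pa replicate 1, 51.1% in HCT15-Pa replicate 2, 81.0% in HCT15-FR replicate 1 and 78.3% in HCT15-FR replicate 2. Both HCT15-FR values lay above both HCT15-Pa values, with group means of 79.6% ± 1.87 and 50.5% ± 0.842 (SD, n = 2 libraries each). The difference of 29.2 percentage points had p = 0.333 in a two-sided exact permutation test over libraries, which is the smallest p that 2 libraries against 2 can give. Over all promoter regions the same shares were 80.1% and 80.2% in HCT15-Pa and 81.5% and 80.8% in HCT15-FR. In these bulk libraries a mark in more of the cells and more of the mark per cell cannot be told apart.

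**Figure D2:**
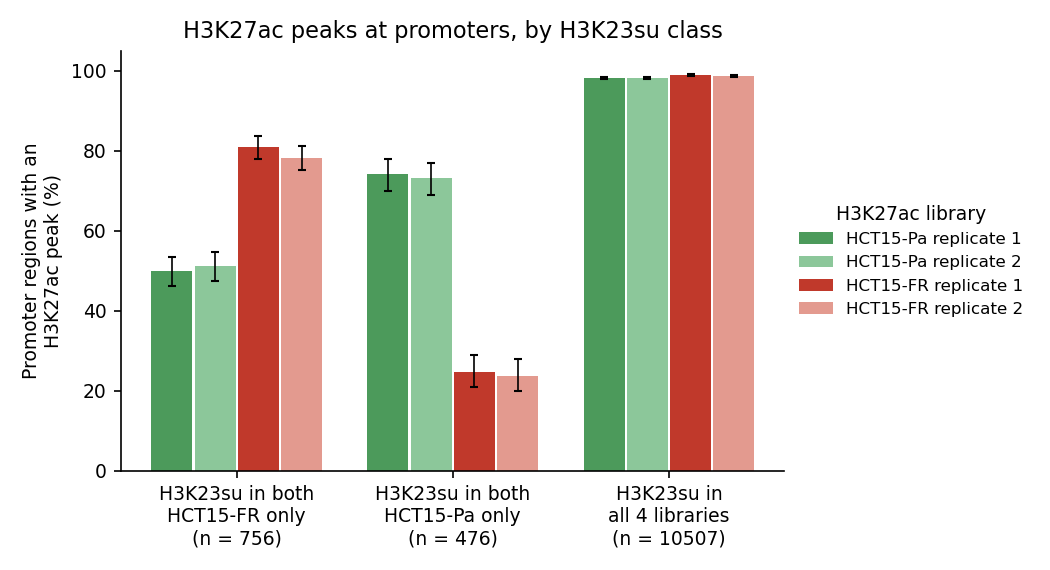
Share of promoter regions with an overlapping H3K27ac peak (vertical axis, %) in each of the 4 H3K27ac libraries, for promoters with H3K23su in both HCT15-FR libraries only, in both HCT15-Pa libraries only and in all 4. Error bars are exact 95% binomial intervals, which cover counting error over regions only, and the first class runs from 49.9% to 81.0% while the second runs from 74.2% down to 23.7%.

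The mirror class gave the opposite picture. At the 476 promoters with H3K23su in both HCT15-Pa libraries only, H3K27ac peaks covered 74.2% and 73.1% in HCT15-Pa and 24.8% and 23.7% in HCT15-FR. H3K27ac was kept in all 4 libraries at 304 of the 756 resistant-line promoters (40.2%), against 11.3% of the parental-line class and 96.4% of the shared class, and against 71.9% of all promoter regions. At 163 of the 756 (21.6%, exact 95% interval 18.7 to 24.7) both HCT15-FR libraries and no HCT15-Pa library had an H3K27ac peak, against 2.84% of all promoter regions. At 77 (10.2%) no library had an H3K27ac peak, against 10.5% of all promoter regions. Without HCT15-FR replicate 1 or 2 of H3K23su this share was 26.6% or 26.3%. At 3 regions the pattern was reversed, with H3K27ac in both HCT15-Pa libraries only, against 2.45% of all promoter regions, and the other 209 (27.6%, against 12.3%) had mixed patterns. Where no parental H3K23su peak lay within 1 kb of the TSS, H3K27ac in HCT15-FR only made up 25.0%, and where one did, 12.1%.

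Where all 4 libraries had an H3K27ac peak, its rank differed little. The median percentile over the 304 regions was 68.8 and 72.2 in HCT15-Pa and 73.6 and 73.2 in HCT15-FR, a difference of 2.92 (p = 0.333, exact permutation test). Leaving out HCT15-Pa replicate 2 gave a difference of 5.12, so that library moved the value by more than 1.5 times. Both HCT15-FR percentiles stood above both HCT15-Pa percentiles at 103 of the 304 (33.9%), against 22.5% of all promoter regions with H3K27ac in all 4 libraries, and below them at 59. The extent of the mark around the TSS was taken over all 756 regions, including the 163 with H3K27ac in HCT15-FR only. Unlike the percentiles, it therefore also counts whether a peak was present. Within 1 kb of the TSS, H3K27ac peaks covered a mean of 422 and 426 bases in HCT15-Pa and 713 and 653 bases in HCT15-FR, a difference of 259 bases (p = 0.333, exact permutation test), while over all promoter regions the values were 853, 848, 919 and 890 bases.

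Regions with H3K27ac in all 4 libraries were richer in CpG than those with it in HCT15-FR only or with none, which were close to each other. The observed-to-expected CpG ratio in the 400 bases around the midpoint had a median of 0.457 over the 756 regions, against 0.388 over the parental-line class, 0.673 over all promoter regions and 0.747 over the shared class. The share above a ratio of 0.6 was 37.8% here and 37.4% in the parental-line class. The median ratio was 0.681 at the 304 regions with H3K27ac in all 4 libraries. It was 0.290 at the 163 with H3K27ac in HCT15-FR only and 0.265 at the 77 with none. Split at a ratio of 0.6, the 286 CpG-rich regions had H3K27ac in all 4 libraries at 63.6% and in HCT15-FR only at 11.2%. The 470 CpG-poor regions had it at 26.0% and 27.9%. Over all promoter regions the HCT15-FR-only pattern made up 0.852% of the CpG-rich and 5.51% of the CpG-poor ones.

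**Figure D3:**
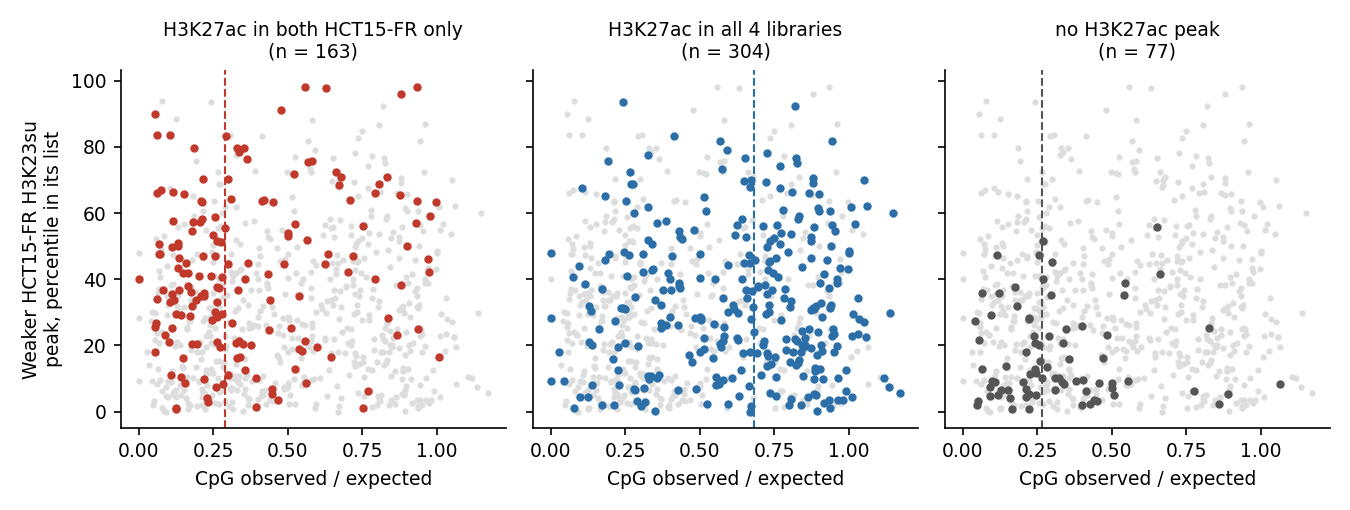
Each point is a member promoter, with the observed-to-expected CpG ratio on the horizontal axis and the percentile of its weaker HCT15-FR H3K23su peak on the vertical axis. Coloured points mark 1 H3K27ac pattern per panel and the dashed line its median CpG ratio, which is 0.290, 0.681 and 0.265 from left to right.

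H3K27ac also went with the strength of H3K23su. Of the 252 strongest regions, 32.9% had H3K27ac in HCT15-FR only and 2.38% had none. Of the middle 252 the shares were 20.2% and 8.73%, and of the weakest 252 they were 11.5% and 19.4%. H3K27ac in all 4 libraries varied less, at 42.9%, 41.7% and 36.1%. Stronger regions were also wider, with a median width of 653.5, 560.5 and 475 bp from strongest to weakest. In the same order, 43.7%, 36.5% and 33.3% of them were CpG-rich. Whether H3K27ac went with H3K23su strength apart from region width and CpG content was not tested.

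Genes of C2H2 zinc finger proteins, DNA-binding factors of which many carry a KRAB domain and silence transposable elements, were frequent among the strongest regions. They held 5 of the first 10 regions by H3K23su strength, 9 of the first 20 and 11 of the first 50, and made up 4.63% of the 756 against 3.11% of all promoter regions. ZNF470 (chr19:57078452-57079713) stood at percentiles 98.8 and 98.2 of the HCT15-FR H3K23su lists. ZNF253 (chr19:19976529-19977589) stood at 99.1 and 98.1, and ZNF878 (chr19:12162898-12164002) at 98.0 and 97.7. All 3 lacked H3K27ac in HCT15-Pa and had it in both HCT15-FR libraries, at percentiles of 84.8 and 90.6 for ZNF470, 95.9 and 98.4 for ZNF253, and 91.3 and 87.7 for ZNF878. ZNF790, whose window also holds TSSs of ZNF345 and of ENSG00000291239, had H3K23su at 91.2 and 92.6 and H3K27ac at 84.7 and 87.3, again in HCT15-FR only. ZFP14 had H3K27ac in all 4 libraries, at percentiles 62.2 and 68.4 in HCT15-Pa and 94.0 and 95.6 in HCT15-FR. The other members of the first 10 were mixed. SIDT1 (H3K23su at 95.9 and 96.6) and MITF had H3K27ac in HCT15-FR only, at 77.8 and 80.2 and at 81.2 and 78.2. WNK4 (95.5 and 88.4) had it at 62.0 in HCT15-Pa replicate 1 as well as at 94.5 and 88.3 in HCT15-FR. ZFAND6 (93.9 and 95.6) had it in replicate 2 of each line alone, at 32.8 in HCT15-Pa and 57.7 in HCT15-FR.

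**Figure D4:**
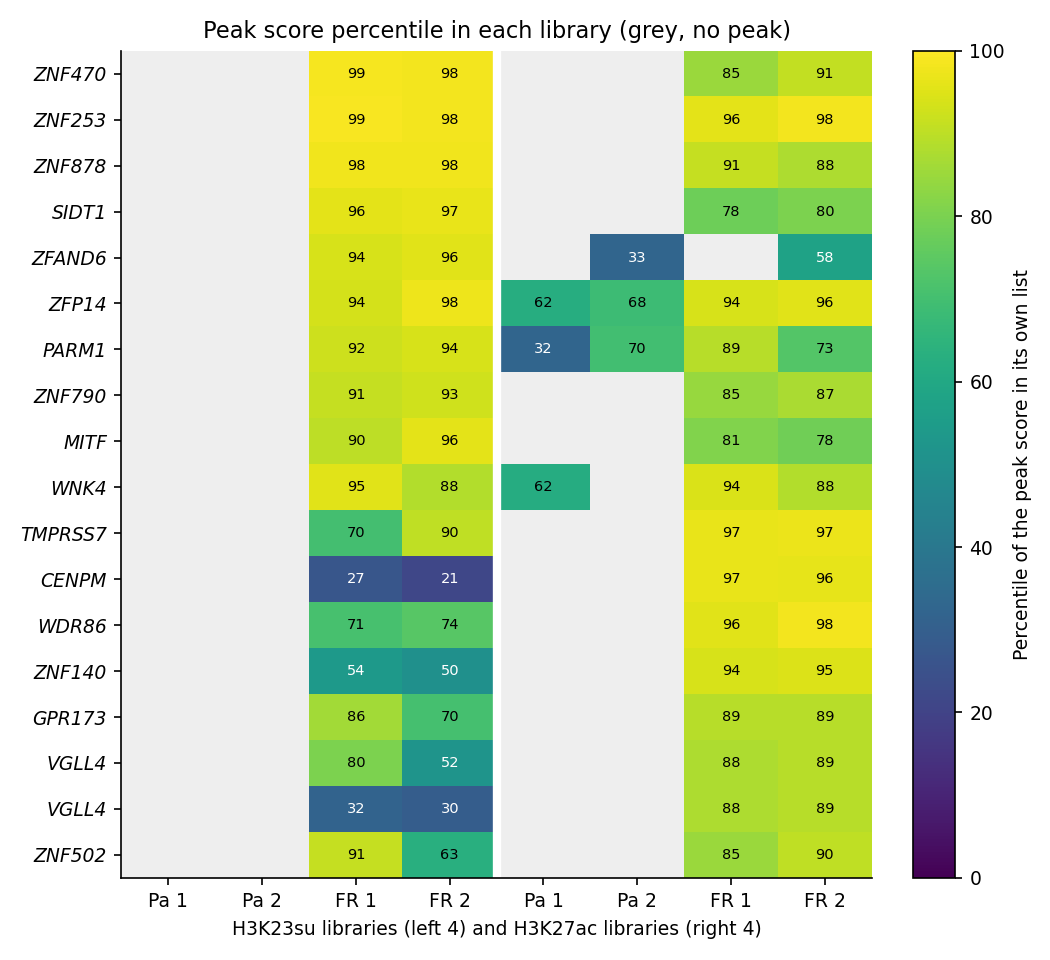
Percentile of the peak score within its own list (colour and number) for the 10 strongest members by H3K23su and the 10 strongest by H3K27ac among those with H3K27ac in HCT15-FR only, in the 4 H3K23su libraries (left) and the 4 H3K27ac libraries (right), with grey for no peak. The grey H3K23su columns of HCT15-Pa follow from the rule, and ZNF253 and ZNF878 appear in both sets.

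Of 422 zinc finger genes with an H3K23su promoter region, 35 (8.29%) had a resistant-line region, against 5.8% of all genes, and 7 (1.66%) had a parental-line region, against 3.70% of all genes. One of the 35, ZFP36L1, encodes an RNA-binding protein with another kind of zinc finger and entered by its symbol. The 35 regions at these genes had H3K27ac at 34.3% and 31.4% in HCT15-Pa and at 88.6% and 85.7% in HCT15-FR, a difference of 54.3 points (p = 0.333, exact permutation test). The pattern in HCT15-FR only was seen at 15 of the 35 (42.9%, exact 95% interval 26.3 to 60.6). The 469 zinc finger promoter regions that did not meet the H3K23su rule had H3K27ac at 86.6% and 86.4% in HCT15-Pa. In HCT15-FR the shares were 86.6% and 86.4%, and 6 of the 469 (1.28%) had it in HCT15-FR only. This was not particular to zinc finger genes. All promoter regions outside the set had H3K27ac at 81.6% and 81.6% in HCT15-Pa and at 81.5% and 80.9% in HCT15-FR. Of these 15436 regions, 297 (1.92%) had it in HCT15-FR only.

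The zinc finger regions stood away from parental H3K23su. The nearest parental peak lay at a median of 17741 bases, against 2386 bases for all 756, and 32 of the 35 had none within 1 kb of the TSS. The TSS was inside the region at 28 of them, and the 5′ end of the gene within 1 kb at 25. By position, 16 of 169 zinc finger genes on chromosome 19 (9.47%) and 19 of 253 elsewhere (7.51%) were in the set, against 47 of 774 other genes on chromosome 19 (6.07%). The 1 Mb of chromosome 19 from position 36869287, with 16 promoter regions, held 6 regions of the set, at ZFP14, ZNF567, ZNF790, ZNF585A, ZNF585B and ZNF383. Among those 6, 3 had H3K27ac in HCT15-FR only. ZNF585A and ZNF585B are close paralogs, and since the study kept uniquely mapped reads only, reads that match both would count at neither.

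The strongest H3K27ac among regions with it in HCT15-FR only was at TMPRSS7, which encodes a transmembrane serine protease, with percentiles of 96.5 and 97.1 and H3K23su at 70.3 and 90.5. CENPM, a centromere protein gene, had almost the same H3K27ac, 96.6 and 96.1, beside weak H3K23su at 26.9 and 21.4. WDR86 had H3K27ac at 95.6 and 98.3, ZNF140 at 94.1 and 94.9, and the orphan receptor gene GPR173 at 89.3 and 89.1. The 2 VGLL4 regions (chr3:11609596-11610502 and chr3:11610815-11611295) lay under the same HCT15-FR H3K27ac peaks, at 87.6 and 89.3. So strong H3K27ac occurred with strong and with weak H3K23su.

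H3K27ac was listed in all 4 libraries at PARM1, a mucin-like membrane protein gene (H3K23su at 92.5 and 94.0). Its H3K27ac percentile was 32.4 and 69.8 in HCT15-Pa and 89.2 and 73.4 in HCT15-FR, so the replicates of HCT15-Pa differed widely. At TNS3, which encodes a focal adhesion protein, it was 63.1 and 86.3 against 79.8 and 83.8, and the lines overlapped. At ALDOC, an aldolase of glycolysis, it was 67.1 and 28.1 against 85.6 and 79.8. The region shared by SMIM19 and SLC20A2 (H3K23su at 81.9 and 93.5) ran the other way, at 98.4 and 97.8 in HCT15-Pa and 96.9 and 93.6 in HCT15-FR.

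Regions with H3K23su and no H3K27ac were weaker. The first by strength were JADE3 at H3K23su percentiles 55.7 and 55.8, PPIH at 51.6 and 62.6, DHX30 at 51.3 and 47.3, ZFP42 at 47.2 and 48.2, and KRT36 at 62.2 and 45.2. All but ZFP42 had a parental H3K23su peak within 1 kb of the TSS, unlike most of their class, in which 16 of 77 did. All 3 keratin genes in the set, KRT15, KRT16 and KRT36, belonged here. They were 3 of 16 keratin genes with an H3K23su promoter region (18.75%, against 5.8% of all genes). The 3 regions with H3K27ac in HCT15-Pa only were at SLC27A5 and ACSL5, both acyl-CoA synthetase genes, and at BOK, a BCL2 family gene. Their HCT15-Pa H3K27ac percentiles were 2.37 and 10.9, 14.8 and 66.2, and 63.5 and 61.3. SLC27A5 had a further region in the set, with H3K27ac in all 4 libraries. There the weaker H3K27ac percentile was 26.0 in HCT15-Pa and 73.3 in HCT15-FR.

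**Figure D5:**
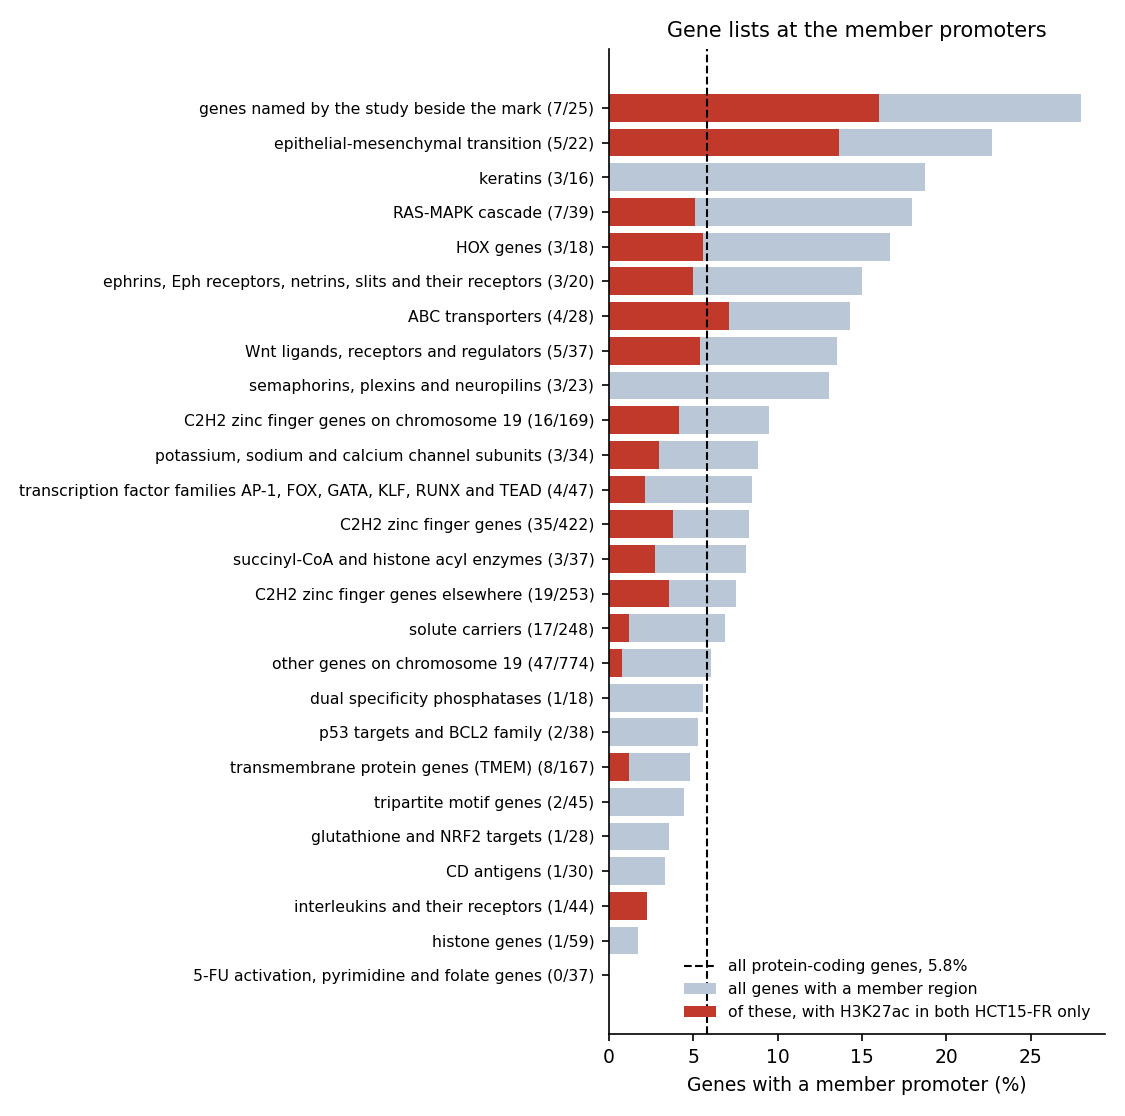
Percentage of genes with a member promoter (bar length, horizontal axis) for gene lists with at least 15 genes at an H3K23su promoter region, with counts in brackets, and in red the genes with a member region that had H3K27ac in both HCT15-FR libraries only. The dashed line marks 5.8% of all protein-coding genes, and the lists run from 0 of 37 to 7 of 25.

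Among signalling lists, the RAS-MAPK cascade had 7 of 39 genes in the set (17.9%, against 5.8% of all genes) and none in the parental-line class. They included the receptors FGFR2, FLT1 and KIT, the GTPases HRAS and RAP1B and the kinase RPS6KA2. The study had named FLT1 from these samples, so that gene is no independent evidence. KIT had H3K27ac in HCT15-FR only, at percentiles 25.9 and 48.9, while FGFR2, FLT1, HRAS and RAP1B had it in all 4 libraries. At RAP1B the H3K27ac percentile was lower in HCT15-FR, 57.9 and 73.9 against 88.6 and 83.8 in HCT15-Pa. At HRAS the H3K27ac percentile was 66.1 and 82.1 in HCT15-Pa and 58.4 and 83.7 in HCT15-FR, and the lines overlapped. HRAS, RAP1B and RPS6KA2 each had parental H3K23su peaks within 1 kb of the TSS in both libraries.

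Wnt pathway genes made up 5 of 37 (13.5%, against 5.8% of all genes), and 1 of 37 was in the parental-line class. DKK4, a secreted Wnt antagonist, had H3K23su at 71.0 and 63.5 and H3K27ac in HCT15-FR only, as had LEF1, a partner of β-catenin, at the weaker H3K23su percentiles of 6.20 and 24.6. TCF7, a partner too, had H3K27ac in HCT15-FR replicate 2 alone. NKD1 and AXIN1, which restrain the pathway, had H3K27ac in all 4 libraries.

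Epithelial-mesenchymal transition genes made up 5 of 22 (22.7%, against 5.8% of all genes), and 2 of 22 (9.09%, against 3.70%) were in the parental-line class. Of the 5, LOXL4 had been named by the study from these samples and is no independent evidence. LOXL4, a lysyl oxidase, stood at H3K23su 78.7 and 63.9, and SPARC, a matrix protein, at 9.95 and 13.8, both with H3K27ac in HCT15-FR only, as was CDH3, P-cadherin, at 3.14 and 1.40. VIM, the mesenchymal filament vimentin, stood at 72.4 and 74.0. Its H3K27ac was absent in HCT15-Pa replicate 1 and at percentile 45.6 in replicate 2, against 87.5 and 87.8 in HCT15-FR. CTNND1, p120 catenin, had H3K27ac in all 4 libraries, at 55.1 and 89.4 against 86.9 and 88.0.

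Of 28 ABC transporter genes, 4 were in the set (14.3%, against 5.8% of all genes) and 0 in the parental-line class, namely ABCB9 with 2 regions, ABCC11, ABCA7 and ABCF1. ABCC11, a drug efflux pump, had H3K23su at 70.7 and 65.7 and H3K27ac at 69.7 and 74.1 in HCT15-FR only. Of 37 genes of 5-FU activation, pyrimidine and folate metabolism, 0 were in the set, against 5.8% of all genes, a difference that was not tested, and 36 of them had H3K23su in all 4 libraries. Of 38 genes on a partial list of p53 targets and BCL2 family members, which leaves out BOK, 2 were, namely CDKN1A with no H3K27ac and CASP9 with H3K27ac in all 4 libraries. Solute carriers, at 17 of 248 (6.85%), and TMEM genes, at 8 of 167 (4.79%), lay near the share of all genes. Further counts were 3 of 37 for succinyl-CoA and histone acyl enzymes (CREBBP, HDAC2 and KAT8), 4 of 47 on a partial list of AP-1, FOX, GATA, KLF, RUNX and TEAD factors (FOXD1, FOXP1, GATA6 and JUND, with FOXJ1 and FOXJ3 in the set but not on the list), 3 of 18 for HOX genes, 3 of 20 for ephrins and related guidance genes, 3 of 23 for semaphorins and their receptors and 3 of 34 for ion channels. The tripartite motif genes had 2 of 45. There was 1 gene each among 59 histone genes, 44 interleukin genes, 30 CD antigens, 28 glutathione and NRF2 targets and 18 dual specificity phosphatases, and 0 among 5 protocadherins and 12 collagens.

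Genes that the study had named beside the mark were in the set at 7 of 25 (28%, against 5.8% of all genes). In the parental-line class they were 7 of 25 too (28%, against 3.70%). They were picked from these samples and are no independent evidence. Those in the set were FLT1, FOXP1, LOXL4, MITF, PARM1, RAMP1 and SLC22A31. FLT1, FOXP1, LOXL4 and SLC22A31 also count in lists above. FOXP1, a forkhead transcription factor, had 2 regions (chr3:71113065-71113910 and chr3:71114251-71114922) with H3K23su at 74.8 and 47.7 and at 46.1 and 67.6, both with H3K27ac in HCT15-FR only and 143810 and 142798 bases from the nearest parental peak. Of 12 intestinal epithelial markers, CDX1 and CDH17 were in the set (16.7%, against 5.8% of all genes). At that list H3K23su peaks lay within 1 kb of a TSS for 8 genes in each HCT15-Pa library and 11 in each HCT15-FR library, and H3K27ac peaks for 10 and 11. The H3K23su counts come from the lists that chose the set, and CDX1 and CDH17 were chosen for peaks in HCT15-FR only. Their difference is therefore no separate evidence. Markers of leukocytes, endothelium, fibroblasts, hepatocytes and neurons had peaks at no more than 2 genes of a list in any library.

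The AP-1 site, the motif of FOS and JUN dimers, had the highest ratio to all promoter regions of 14 motifs searched on both strands in the 400 bases around the midpoint. Its letters TGACTCA occurred in 88 of the 756 regions (11.6%), against 7.56% of the parental-line class, 5.78% of all promoter regions and 4.44% of the shared class. Since the motif is commoner where CpG is scarce, CpG-poor regions were also compared alone. It was then in 17.7% of the 470 regions against 10.3% of all CpG-poor promoter regions. Regions with H3K27ac in HCT15-FR only held it at 15.3%, and none of the 35 zinc finger regions did. The lines below show it in capitals within 40 bases on either side, in build hg19, at regions with H3K27ac in HCT15-FR only. ABL2, a tyrosine kinase gene, and VDR, the vitamin D receptor gene, were chosen after their values were seen. SMAD3, a mediator of TGF-β signals, and KLHL29 had 2 regions each. The ABL2 site is in the 400 bases searched but outside the region itself, and the other 3 sites are inside theirs.
ABL2, chr1:179112347-179112433, minus strand: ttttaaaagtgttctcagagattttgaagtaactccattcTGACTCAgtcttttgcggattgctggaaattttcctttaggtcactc
SMAD3, chr15:67360522-67360608, plus strand: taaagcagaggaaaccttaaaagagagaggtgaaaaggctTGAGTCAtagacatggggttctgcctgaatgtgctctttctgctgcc
KLHL29, chr2:23607458-23607544, plus strand: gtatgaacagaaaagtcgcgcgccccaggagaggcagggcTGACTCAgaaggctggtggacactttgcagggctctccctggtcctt
VDR, chr12:48297806-48297892, minus strand: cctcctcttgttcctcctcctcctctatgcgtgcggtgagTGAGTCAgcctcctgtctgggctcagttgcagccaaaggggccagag
The site starts at position -199 from the TSS of ABL2 and -549 from that of KLHL29, and 442 and 928 bases downstream of the TSSs of SMAD3 and VDR. ABL2 had H3K23su at 86.7 and 83.7 and H3K27ac at 72.5 and 81.8, and the SMAD3 region with the site had weaker H3K23su at 53.1 and 10.5.

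The other motifs are given with their share of all promoter regions. The TATA box, TATAAA, was in 9.26% of the regions against 5.68% of all promoter regions, and in 15.3% of those with H3K27ac in HCT15-FR only. Among CpG-poor regions the shares were 12.8% against 9.20%. The FOX motif TGTTTAC was in 3.97% against 3.26%, and the GATA motif AGATAAG in 4.37% against 2.40%, or 6.17% against 3.95% among CpG-poor regions. The GC box GGGGCGGGG was in 14.7% against 14.9%, with 20.1% where H3K27ac was in all 4 libraries and 6.13% where it was in HCT15-FR only. Among CpG-rich regions the GC box was in 27.3% against 21.8%. The YY1 motif AAGATGGCG, which the ZNF253 stretch shown above carries, was in 1.06% against 1.62%, and in 3 of the 35 zinc finger regions. The ETS motif CCGGAAGT was in 13 of the 756 regions (1.72%) against 485 of the 16192 promoter regions. The other motifs were TEAD GGAATGT (4.23% against 3.56%), CCAAT (32.7% against 28.3%), NRF1 GCGCATGCG (1.59% against 1.24%), CRE TGACGTCA (1.19% against 1.03%), the E-box CACGTG (9.26% against 7.89%), ZNF143 ACTACAATT (0.397% against 0.204%) and RUNX TGTGGTTT (1.46% against 1.42%). A match is a string of letters and not a bound site.

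The regions were spread over all chromosomes but Y. Of the 23 promoter regions on Y, 0 were in the set and 8 (34.8%) were in the parental-line class. The share of promoter regions in the set was highest on chromosomes 16 (60 of 845, 7.10%), 17 (69 of 1109, 6.22%) and 11 (60 of 974, 6.16%), and 3.02% on both 10 and 13. H3K27ac in HCT15-FR only was seen at 163 of all 756 regions (21.6%). It was seen at 11 of 24 on chromosome 5 and at 18 of 41 on chromosome 3, differences that were not tested. Those on chromosome 3 included SIDT1, MITF, VGLL4, FOXP1, ZNF502 and TMPRSS7. On chromosome 16 the count was 11 of 60. The most crowded 1 Mb, on chromosome 11 from position 65148478, held 8 regions among 38 promoter regions, none with H3K27ac in HCT15-FR only.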

How the data were processed

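The 8 CUT&Tag libraries covered 2 marks in 2 lines with 2 libraries each. The deposited lists hold peak coordinates in hg19 and a score, the -log10 P value made by the authors, who aligned reads with Bowtie2 and called peaks per library with MACS2 (broad option for H3K27ac). From these, H3K23su peaks were merged, a peak counted as present by an overlap of 1 bp, and TSSs were the 5′ ends of protein-coding transcripts in GENCODE 44 lifted to GRCh37. H3K27ac was compared by the exact two-sided permutation test over libraries. Shares of regions carry exact 95% binomial intervals, with no test, since regions are not replicates. Sequence came from GRCh37 with pysam 0.24.0. The merging and counting were tested on simulated data. Named genes were the first 10 by weaker H3K23su percentile, the first 10 or 5 by percentile within each H3K27ac pattern, members of the gene lists, those nearest a threshold and genes with 2 or more regions. The members and lists were chosen with earlier results of these data known. Depth is not given by peak lists, and reads were not used here. Some genes and gene lists are not reported here.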

Additional observations from a re-analysis of the deposited data

How the results depend on the processing

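Every alternative kept the direction of the 3 H3K27ac differences between the lines, and no p could fall below 0.333. The difference in H3K27ac peak share ran from 20.1 to 32.7 points, and from 20.1 to 30.5 with single libraries left out. The percentile difference ran from 2.15 to 5.12 with single libraries left out and was 1.10 with H3K27ac peaks taken within 1 kb of the TSS. The covered-base difference ran from 229 to 289 and was 194 inside the regions, an alternative chosen after seeing the data. With the replicate block the differences were the same (29.2 points, 2.92 and 259 bases) with p = 0.5 by exact sign flips, the smallest that 2 pairs allow, and whether the numbers pair the libraries could not be told. The number of promoters was 1460 where peaks had to cover 50% of the region, 400 with gene 5′ ends only, and 1190 to 1613 with single H3K23su libraries left out. The share with H3K27ac in HCT15-FR only was 16.2% with the stronger 50% of peaks, 18.4% with 50% coverage, 18.5% with gene 5′ ends, and 14.6% to 26.98% with libraries left out. The share with H3K27ac in all 4 was 45.1% with the stronger peaks, 44.7% within 500 bp, 33.2% within 2 kb, 49.8% with gene 5′ ends, 49.7% with peaks within 1 kb of the TSS, 24.5% with H3K27ac covering 50% of the region, and 28.1% to 50.3% with libraries left out. The share with none was, in the settings that moved it, 7.39% within 500 bp, 13.1% within 2 kb, 6.25% with gene 5′ ends, 6.48% within 1 kb of the TSS, 21.0% with 50% coverage by H3K27ac, and 7.78% to 26.6% with libraries left out. The causes were not tested. With the stronger 50% of peaks only 167 of the 756 regions met the rule again. A region needed both HCT15-FR peaks above the middle of their list, so the first 10 were kept by the ranking itself. Zinc finger promoters made up 3.45% to 6% of the set over the alternatives and 4.63% as reported.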

Other observations

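Regions with H3K23su in both HCT15-FR libraries only were mostly away from promoters, with 8979 of 9735 over 1 kb from a TSS. H3K27ac peaks overlapped 22.1% and 22.2% of those distant regions in HCT15-Pa and 69.8% and 71.0% in HCT15-FR. H3K27ac in HCT15-FR only was listed at 38.0% of them, against 21.6% of the promoters, and their median CpG ratio was 0.198.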
